A study of Mus musculus with 2 samples.

Results

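The collagen chain genes are the genes whose products wind around each other into the collagen triple helix. They were taken here as every gene in the feature list whose symbol is exactly Col, digits, a, digits, and that held at least 20 unique molecular identifiers (UMIs, tags that mark single captured RNA molecules) over both libraries together. The feature list of 31053 genes held 44 such symbols, and 37 of them reached 20 UMIs. These 37 members were 11 of 11 fibrillar chains, 5 of 6 basement membrane network chains, 3 of 3 hexagonal network chains, 6 of 8 beaded filament chains, 7 of 9 FACIT chains (fibril-associated collagens with interrupted helices), 1 of 1 anchoring fibril chain, 2 of 4 transmembrane chains and 2 of 2 multiplexin chains. Just inside the limit stood Col6a6 with 22, Col6a5 with 25 and Col19a1 with 26 UMIs, and just outside it Col4a3 and Col25a1 with 17 UMIs each and Col9a2 with 15. Col13a1 held 10, Col26a1 7, Col6a4 5 and Col9a1 1 UMI. The largest totals were those of Col1a2 with 670925, Col1a1 with 474522 and Col3a1 with 260431 UMIs.

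The cells came from perivascular adipose tissue, the fat around blood vessels, here dissected from the aorta of mice and digested with collagenase to free the stromal cells. There were 2 single-cell libraries made with the 10x Genomics 3′ kit, version 2. One came from old wild-type (WT) mice and one from young WT mice, and no other genotype or agent was given for either. The sources used here do not give the ages in weeks, the sex or the number of mice behind each library, nor whether the cells spent time in culture. With 1 library per age there is no replicate: old and young values below differ by age and by library at once, which cannot be told apart, and no test across animals could be made. Intervals are 95% intervals that cover counting error only.

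Collagen chains share a short repeat that begins with glycine, the smallest amino acid and the one that fits in the middle of the triple helix. Fibrillar collagens have 1 long unbroken helix and assemble into the banded fibrils that carry tension in the vessel wall and in fat. Type IV collagen forms the sheet of basement membranes, type VI forms beaded microfibrils around cells, FACIT chains decorate fibril surfaces, and the multiplexins are basement membrane collagens that carry sugar chains. The aorta's outer coat and the fat around it are rich in types I, III and VI, and fibroblasts are their main makers.

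The longest unbroken run of glycine triplets was sought in any reading frame of every annotated transcript of each chain (GENCODE vM21, GRCm38). It was between 216 and 344 triplets in the 11 fibrillar chains, with a median of 338. Col3a1 had the longest with 344, and Col24a1 with 216 and Col27a1 with 217 stood apart from the other fibrillar chains. In all other classes the runs were shorter, between 32 and 113 triplets in FACIT chains, 28 and 87 in beaded filament chains, 40 and 66 in basement membrane network chains, 60 and 61 in hexagonal network chains, 43 and 56 in transmembrane chains, 75 in the anchoring fibril chain Col7a1 and 30 in both multiplexins.

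The old library had 14636 barcodes with 147166475 UMIs (median 9108 per barcode), and the young library 13104 barcodes with 130398999 UMIs (median 9044.5). After filters and removal of likely doublets, 12207 old and 11453 young cells remained. The libraries shared 275 barcode sequences, 205 of them among the kept cells. Cells were assigned by marker genes, none of them a collagen: a cell passed a gate with UMIs of at least 3 markers of that type (4 for blood endothelium), so a gate is a range and not a sharp class. The mesenchymal gate, built on markers such as Pdgfra, Dcn and Lum, took 10383 old cells (85.1%) and 10321 young cells (90.1%). Of these, 575 old and 850 young cells held just 3 of the 10 markers, and 423 old and 431 young cells outside the gate held just 2. The other gates with at least 20 cells in a library took 1090 old and 34 young blood endothelial cells, 86 old and 81 young Schwann cells (the glia of peripheral nerves), 69 old and 319 young mesothelial cells (the surface lining of the serous cavities), 110 old adipocytes and 104 old macrophages. The young library had 8 cells in the adipocyte gate and 1 in the macrophage gate, and neither was compared between ages. Cells of the other gates also carried mesenchymal markers, a median of 4 of 10 in old and 3 in young endothelial cells, 2 and 1 in Schwann cells, 5 and 4 in mesothelial cells, 3 in old adipocytes and 2 in old macrophages. Collagen UMIs in those gates are read with that in mind.

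The mesenchymal cells of the libraries fell into different clusters when all cells were clustered together without collagen genes. Of the old ones, 96.9% lay in 10 clusters in which at least 98% of mesenchymal cells were old, chiefly clusters 0 to 4, 6 and 11. Of the young ones, 96.4% lay in 8 clusters in which at least 98% were young, clusters 7 and 16 to 22. The 3 mixed clusters held 299 old and 369 young mesenchymal cells. Every old and young mesenchymal value below therefore compares cells of largely different clusters, and whether these are cell states or the libraries themselves cannot be told apart.

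Collagen chains were among the most abundant messages of the mesenchymal cells. Levels below are in CPM, the UMIs of a gene per 1000000 UMIs of all genes, summed over the cells of a gate. The method takes 1 tag near the 3′ end of each molecule, so no correction for gene length was made. Together the members reached 7243 CPM in old mesenchymal cells (7227 to 7259) and 8689 CPM in young ones (8671 to 8707), 1.20-fold lower in the old library. Col1a2 ranked 92nd of all genes in old and 71st in young mesenchymal cells, Col1a1 108th and 95th, and Col3a1 147th and 139th. In the median mesenchymal cell, 0.709% of UMIs were collagen in the old and 0.817% in the young library.

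**Figure D1:**
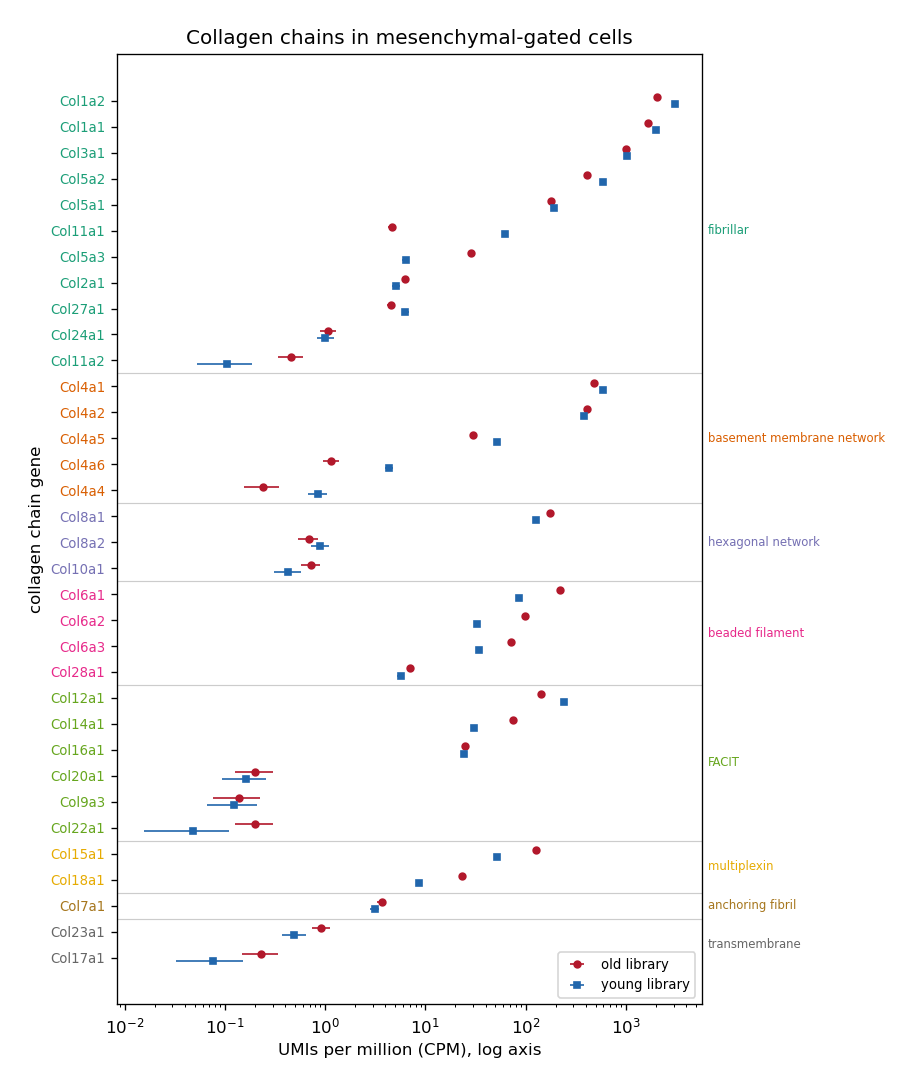
Levels of the collagen chains in gated mesenchymal cells, in CPM on a log axis, by collagen class, with old and young libraries as separate points and 95% counting intervals. Col1a2 is highest, at 2052 CPM in old and 3121 CPM in young cells, and among chains with at least 20 UMIs in these cells the widest gap is that of Col11a1, at 4.61 and 62.1 CPM.

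The classes differed in direction. Fibrillar chains summed to 5340 CPM in old and 7003 CPM in young mesenchymal cells, a log2(old/young) difference of -0.39 (-0.40 to -0.39). Their part of all collagen UMIs was 73.7% in the old and 80.6% in the young library. Beaded filament chains went the other way, with 400.0 CPM in old and 159 CPM in young cells, a log2 difference of 1.33 (1.31 to 1.36), and 5.52% against 1.83% of collagen UMIs. Multiplexins stood at 150 CPM in old and 60.5 CPM in young cells (log2 1.31, 1.26 to 1.35). The remaining large classes differed less: basement membrane network chains had 927 CPM in old and 1038 CPM in young cells (log2 -0.16), FACIT chains 243 and 295 CPM (log2 -0.28), and hexagonal network chains 178 and 129 CPM (log2 0.46).

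Of the 37 members, 34 had at least 20 UMIs in mesenchymal cells of both libraries together, the minimum used here for a fold change. Of these, 12 stood at least 1.5-fold higher in old cells, where 19.7% of all 15181 genes with as many UMIs were that much higher, and 6 were at least 1.5-fold lower, where 12.4% of all genes were. The median log2(old/young) level difference was 0.19 over the 34 chains and 0.13 over all genes. Both counts were above those shares, and the set did not move in 1 direction. The 3 chains under the minimum were Col6a5, with 16 old and 1 young UMI, Col19a1 with 7 old and 12 young, and Col6a6 with 11 old and 3 young.

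**Figure D2:**
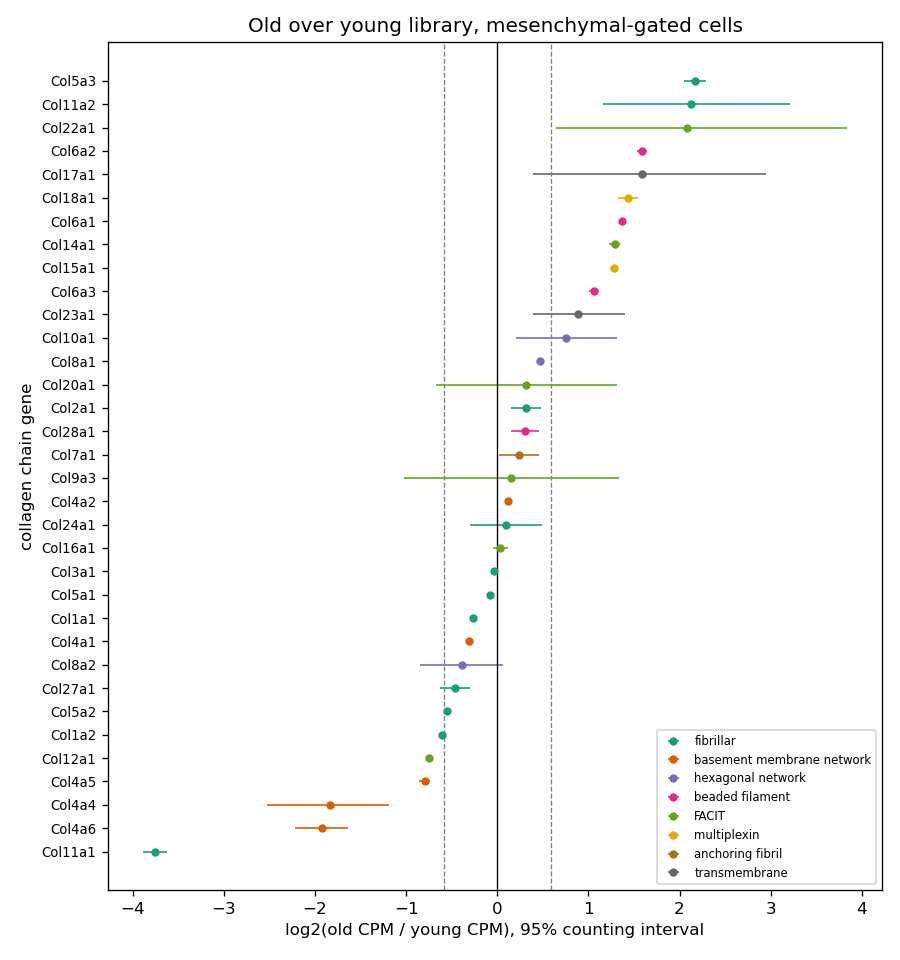
Log2(old/young) of each measured collagen chain in gated mesenchymal cells, ordered by value and coloured by class, with 95% counting intervals and dashed lines at the 1.5-fold limit. Beaded filament chains Col6a1, Col6a2 and Col6a3 and both multiplexins lie right of the upper line, while Col11a1 lies far left at -3.75.

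The main fibrillar chains were lower in the old library by modest amounts. Col1a2, the less abundant chain of the type I molecule, had 2052 CPM in old and 3121 CPM in young mesenchymal cells, 1.52-fold lower, which is close to the limit. Col1a1, its partner in that molecule, had 1659 CPM in old and 1991 CPM in young cells, 1.20-fold lower. Col3a1, the chain of type III collagen, which is found with type I in elastic vessel walls and loose tissue, had 996 CPM in old and 1022 CPM in young cells, a log2 difference of -0.04, and its sign turned to 0.04 among mesenchymal cells with no UMI of another cell type's markers.

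Type V collagen, which starts fibrils and keeps them thin, was not of 1 kind. Col5a1 had 180.1 CPM in old and 191 CPM in young cells, and Col5a2 407 and 598 CPM, 1.47-fold lower and so just under the limit. Col5a3, the less widely expressed type V chain, had 28.6 CPM in old mesenchymal cells (27.7 to 29.7) and 6.38 CPM in young ones (5.90 to 6.88). That is a log2 difference of 2.17 (2.05 to 2.29), 4.49-fold higher. The 3 chains of this type thus lay on both sides of 0 in the same cells.

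Col11a1, a minor fibrillar chain best known from cartilage, where it limits the width of type II fibrils, gave the widest difference of the 34 chains with at least 20 UMIs in mesenchymal cells. It held 505 UMIs or 4.61 CPM in old mesenchymal cells (4.22 to 5.03) and 6527 UMIs or 62.1 CPM in young ones (60.6 to 63.6), 13.5-fold lower (log2 -3.75, -3.88 to -3.62). When each cell was thinned to 2000 UMIs, 0.999% of old and 9.65% of young mesenchymal cells held a Col11a1 UMI. Without thinning the shares were 4.15% and 33.0%, at a median depth of 9377 UMIs per old and 9193 per young cell. Old macrophages, which should lack the gene, had 0 of 104 cells with a UMI after thinning, which allows a share of up to 3.48%. Without thinning 1.92% of them held one, at 2.62 CPM and a median depth of 6192.5 UMIs. The old mesenchymal share was therefore not shown to lie above background at this depth, while the young one was above that limit. The young library had too few macrophages to give a limit of its own.

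The promoter windows of Col11a1 and Col5a3 are shown because these 2 fibrillar chains lay farthest from 0 in opposite directions. They are 300 bases from RefSeq (GRCm38.p6), 250 before and 50 after the start, on the gene's strand, and capitals mark matches to GGGCGG (the GC box) or CCAAT on either strand. Col11a1 is at chr3:114030290-114030589 on the forward strand, and Col5a3 at chr9:20815018-20815317 on the reverse strand.
Col11a1: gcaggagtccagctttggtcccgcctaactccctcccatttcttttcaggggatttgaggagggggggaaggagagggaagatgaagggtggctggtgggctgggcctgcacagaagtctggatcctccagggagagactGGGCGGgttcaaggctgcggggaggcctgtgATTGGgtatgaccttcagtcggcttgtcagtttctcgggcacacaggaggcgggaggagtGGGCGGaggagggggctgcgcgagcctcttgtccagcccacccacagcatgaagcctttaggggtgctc
Col5a3: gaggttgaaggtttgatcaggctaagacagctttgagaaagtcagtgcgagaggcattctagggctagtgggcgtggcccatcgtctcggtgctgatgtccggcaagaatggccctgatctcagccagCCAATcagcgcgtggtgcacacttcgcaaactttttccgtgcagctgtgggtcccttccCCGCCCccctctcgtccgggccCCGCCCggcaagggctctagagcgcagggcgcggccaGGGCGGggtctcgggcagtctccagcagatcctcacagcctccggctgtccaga
Col11a1 held 2 GC boxes and 1 CCAAT box, and Col5a3 held 3 GC boxes and 1 CCAAT box, with no overlap between matches. Neither window held TATAAA or the AP-1 motif TGANTCA.

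The remaining fibrillar chains were low. Col2a1, the main collagen of cartilage, had 6.33 CPM in old and 5.10 CPM in young mesenchymal cells. Its UMIs were gathered in few cells: 2.96% of old and 1.08% of young cells held one, the 54 old and 13 young cells with the most held as many as all others together, and single cells held up to 19 and 28 UMIs. Its log2 difference of 0.31 became -0.38 among mesenchymal cells without UMIs of other types' markers, so its sign depended on which cells were taken. Col27a1 had 4.58 CPM in old and 6.31 CPM in young cells, Col24a1 held 118 old and 106 young UMIs, and both are the fibrillar chains with the short helix. Col11a2, a partner of Col11a1 in cartilage, went the other way from it with 50 old and 11 young UMIs, 0.457 and 0.105 CPM.

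Type VI collagen, whose 3 common chains Col6a1, Col6a2 and Col6a3 join in 1 molecule, was higher in the old library in each of them. Col6a1 had 221 CPM in old mesenchymal cells (218 to 223) and 85.4 CPM in young ones (83.7 to 87.2), 2.58-fold higher. Col6a2 had 99.7 CPM in old and 33.1 CPM in young cells, 3.02-fold higher. Col6a3, the longest chain, whose C-terminal end is released as endotrophin, had 72.3 CPM in old and 34.6 CPM in young cells, 2.09-fold higher. None of the 3 intervals came near the 1.5-fold limit. Thinned to 2000 UMIs per cell, 35.4% of old and 15.3% of young mesenchymal cells held a Col6a1 UMI, against 10.6% of old macrophages (5.40% to 18.1%). For Col6a2 the shares were 18.4% and 6.38%, against 8.65% of old macrophages (4.03% to 15.8%). For Col6a3 they were 12.3% and 6.06%, against 4.81% (1.58% to 10.9%). In each case the old share lay above the interval of the old macrophages and the young share did not. The young library had too few macrophages to give a limit of its own, so the young shares were not set against their own background. Col28a1, a beaded filament chain known from peripheral nerve, differed little, with 7.03 CPM in old and 5.70 CPM in young cells.

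Col6a1 and Col6a2 are neighbours on chromosome 10, on the same strand with 85161 bases between them, and Col18a1 lies 326009 bases beyond Col6a1 on that strand. All 3 were more than 2.5-fold higher in old mesenchymal cells. Other genes of this stretch were not looked at, and any part of position in these differences was not tested. The windows of the 2 type VI genes, from RefSeq as above, are shown because both chains were higher in old cells: Col6a1 at chr10:76725995-76726294 and Col6a2 at chr10:76623581-76623880, both on the reverse strand, with capitals marking TGANTCA in Col6a1 and GGGCGG, read on the other strand, in Col6a2.
Col6a1: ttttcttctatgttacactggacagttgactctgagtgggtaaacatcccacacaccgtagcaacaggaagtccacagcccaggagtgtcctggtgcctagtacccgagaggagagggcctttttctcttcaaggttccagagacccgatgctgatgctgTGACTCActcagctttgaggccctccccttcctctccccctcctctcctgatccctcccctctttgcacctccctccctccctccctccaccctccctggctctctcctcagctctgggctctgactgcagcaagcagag
Col6a2: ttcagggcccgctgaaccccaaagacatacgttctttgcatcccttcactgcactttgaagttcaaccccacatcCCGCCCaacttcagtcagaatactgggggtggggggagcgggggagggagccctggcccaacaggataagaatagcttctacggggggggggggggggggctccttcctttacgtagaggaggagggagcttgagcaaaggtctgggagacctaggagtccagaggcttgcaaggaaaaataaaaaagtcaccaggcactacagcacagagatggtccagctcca
They shared none of the 4 motifs searched. The TGANTCA match of Col6a1 was the only one among the 32 windows of collagen members, 3.13% of them, against 7.81% of all 32851 windows of this length. The RefSeq start of Col6a1 lies 124 bases from its GENCODE start. Among the 32 windows, which cover 30 members, 62.5% held GGGCGG against 35.7% of all windows, 31.3% held CCAAT against 37.4%, and 12.5% held TATAAA against 13.6%. Their median share of G and C was 59.8%, against 52.7% over all windows.

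Basement membrane chains came in head-to-head pairs of genes. Col4a1 and Col4a2, the chains of the common type IV molecule, had 481 and 414 CPM in old mesenchymal cells and 598 and 382 CPM in young ones. The log2 difference was -0.31 for Col4a1 (-0.33 to -0.30) and 0.12 for Col4a2 (0.10 to 0.14). Their starts on chromosome 8 are 21 bases apart, and the annotated genes overlap by 22 bases on opposite strands. Windows from RefSeq are shown because 1 stretch serves both genes: Col4a1 at chr8:11312777-11313076 on the reverse strand and Col4a2 at chr8:11312555-11312854 on the forward strand. Capitals mark the 78 bases that lie in both windows.
Col4a1: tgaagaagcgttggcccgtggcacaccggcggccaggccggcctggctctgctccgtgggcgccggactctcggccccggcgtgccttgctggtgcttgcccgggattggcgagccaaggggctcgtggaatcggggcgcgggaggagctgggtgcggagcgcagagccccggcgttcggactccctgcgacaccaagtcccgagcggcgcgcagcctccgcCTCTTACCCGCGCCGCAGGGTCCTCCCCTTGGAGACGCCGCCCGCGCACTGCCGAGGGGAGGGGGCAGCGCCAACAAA
Col4a2: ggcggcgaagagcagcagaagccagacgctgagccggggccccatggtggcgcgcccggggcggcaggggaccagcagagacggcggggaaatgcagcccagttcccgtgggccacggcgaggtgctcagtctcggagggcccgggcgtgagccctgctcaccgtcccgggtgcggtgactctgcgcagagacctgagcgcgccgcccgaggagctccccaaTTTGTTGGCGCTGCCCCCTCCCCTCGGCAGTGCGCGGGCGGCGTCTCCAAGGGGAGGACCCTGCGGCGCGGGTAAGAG
The ratio of the 2 chains differed between the libraries. Col4a1 UMIs were 1.16 times those of Col4a2 in old and 1.56 times in young mesenchymal cells.

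Col4a5 and Col4a6, the head-to-head pair on chromosome X with 1308 bases between them, encode chains of the basement membranes of smooth muscle and some epithelia. Both were lower in the old library. Col4a5 had 30.1 CPM in old and 52.3 CPM in young mesenchymal cells, 1.74-fold lower, and Col4a6 had 1.15 and 4.36 CPM, 3.79-fold lower. Col4a4, a chain of the kidney glomerulus, had 26 old and 89 young UMIs, 0.237 and 0.847 CPM. All 3 minor type IV chains were thus lower in old mesenchymal cells, while the common pair differed by less than 1.5-fold.

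Among FACIT chains, Col12a1 and Col14a1, which both coat the surface of type I fibrils, differed in opposite directions. Col12a1 had 143 CPM in old and 240.0 CPM in young mesenchymal cells, 1.68-fold lower. Col14a1 had 74.3 CPM in old and 30.4 CPM in young cells, 2.44-fold higher. Col16a1, another FACIT chain, had 24.8 and 24.2 CPM. The rare chains Col22a1, with 22 old and 5 young UMIs, Col20a1 with 22 and 17, and Col9a3 with 15 and 13, were at or below 0.201 CPM.

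Both multiplexins were higher in old mesenchymal cells. Col15a1, which links basement membranes to the fibrils beneath them, had 126 CPM in old and 51.8 CPM in young cells, 2.43-fold higher. Col18a1, whose C-terminal fragment is endostatin, had 23.4 CPM in old and 8.67 CPM in young cells, 2.70-fold higher. After thinning, 19.1% of old and 8.97% of young mesenchymal cells held a Col15a1 UMI, against 8.65% of old macrophages (4.03% to 15.8%). For Col18a1 the shares were 4.70% and 1.80%, against 2.88% of old macrophages (0.599% to 8.20%). The old Col15a1 share lay above its macrophage interval. The old Col18a1 share did not, and so was not shown to lie above background. The young library had too few macrophages to give a limit of its own, so neither young share was shown to lie above background. Col8a1, the short chain of the hexagonal networks of vessel walls, had 177 CPM in old and 128 CPM in young cells, 1.38-fold higher. Its partner Col8a2 had 0.685 and 0.895 CPM. Col10a1, known from hypertrophic cartilage, had 0.722 and 0.428 CPM, Col7a1, which anchors epithelia to the tissue below, 3.68 and 3.12 CPM, and the transmembrane chains Col23a1 and Col17a1 (Col17a1 is a part of hemidesmosomes) had 100 and 25 UMIs in old and 52 and 8 UMIs in young cells. Those last genes are near the limit of what this depth can show.

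Markers of most other cell types were also higher in old mesenchymal cells. The summed level was higher in old cells for 9 of 12 lists of other types and lower for 3. The 10 endothelial markers summed to 51.7 CPM in old and 29.2 CPM in young cells, with 7 of 10 at least 1.5-fold higher, and none was at 0. The 10 macrophage markers summed to 31.0 and 13.8 CPM (9 of 10 higher, 2 at 0 in the young cells), the 9 adipocyte markers to 9.18 and 3.72 CPM (5 higher, 1 at 0 in each library), and the 8 pericyte markers to 74.3 and 28.8 CPM (5 higher, none at 0). The 6 neutrophil and monocyte markers went the other way, with 185 CPM in old and 259 CPM in young cells, and so did single mesothelial markers, of which 2 were higher and 5 lower. The 10 mesenchymal markers of the gate itself summed to 3769 CPM in old and 2192 CPM in young cells, with 7 higher and 0 lower. Of the 8 subtype lists 4 were higher and 4 lower in old cells, and the widest gap was that of the 5 Itga8-type markers, with 22.2 CPM in old and 117 CPM in young cells and all 5 lower. The contractile markers had 475 and 534 CPM (2 higher, 5 lower), the cardiac-type factors 77.2 and 108 CPM (0 higher, 4 lower) and the matrix fibroblast markers 283 and 344 CPM (1 higher, 3 lower). The part of the gate's own markers and of the subtype lists in the collagen values was not tested. Restricting to the 4072 old and 6229 young mesenchymal cells with no UMI of endothelial, macrophage, Schwann, mesothelial or adipocyte markers, a choice made after seeing the data, gave log2 differences of 1.36 for the beaded filament class, 1.29 for multiplexins and -0.36 for the fibrillar class. The differences were thus as large there for the beaded filament class and similar for the other 2. The restriction kept unequal parts of the gates, 4072 of 10383 old and 6229 of 10321 young cells. Cells kept by it can still hold free collagen RNA, and what other cell types add to these values was not tested.

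The enzymes that make and cross-link collagen had no common direction. Of 27 measured maturation genes, 6 were at least 1.5-fold higher and 3 at least 1.5-fold lower in old mesenchymal cells, where 19.7% and 12.4% of all genes were. With median-of-ratios size factors 2 were higher instead of 6. Their median log2 difference of 0.12 was close to the 0.13 of all genes. P4ha2, a catalytic subunit of prolyl 4-hydroxylase, which stabilises the helix, had 118 CPM in old and 40.7 CPM in young cells, 2.90-fold higher. Adamts14, a protease that cuts the N-terminal propeptide, had 4.32 and 1.59 CPM, 2.72-fold higher. Lox, the lysyl oxidase that cross-links fibrils, had 529 CPM in old and 1175 CPM in young cells, 2.22-fold lower, and its relative Loxl4 had 4.06 and 6.86 CPM, 1.69-fold lower. Of 8 measured receptors, 1 was higher and 0 were lower, against the same shares of all genes. That one was Itga2, an integrin subunit that binds collagen, with 5.42 CPM in old and 2.78 CPM in young cells. Itgb1, the integrin subunit it pairs with, had 371 CPM in old and 512 CPM in young cells.

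The make-up of the collagen differed between the cell types. Blood endothelial cells had 1915 CPM of collagen in the old and 2044 CPM in the young library. Basement membrane chains were 49.2% of their collagen UMIs in the old and 46.8% in the young library. In the old library Col4a1 stood at 498 CPM in endothelial and 481 CPM in mesenchymal cells, and Col4a2 at 438 and 414 CPM. Fibrillar chains were far lower, Col1a1 at 214 CPM in endothelial cells or 12.9% of the mesenchymal level, Col1a2 at 241 CPM or 11.8%, and Col3a1 at 135 CPM or 13.5%. Of 21 chains with at least 20 UMIs in old endothelial cells, 16 were at least 1.5-fold lower than in old mesenchymal cells, where 20.6% of all genes were that much lower, and 2 were higher, where 16.6% of all genes were. The higher chains were Col18a1, with 43.0 CPM in endothelial and 23.4 CPM in mesenchymal cells, and Col23a1 with 3.04 and 0.913 CPM. Between the libraries 7 of 21 chains were at least 1.5-fold higher in old endothelial cells, where 18.1% of all genes were, and 7 were lower, where 19.8% were, but 10 of these 14 rest on at most 4 young UMIs. Col27a1, with 39 old and 0 young UMIs, was left out, since the 34 young cells are too few to set a level under the old one. In the 208 old endothelial cells with at most 2 mesenchymal markers, Col4a1 stood at 513 CPM.

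**Figure D3:**
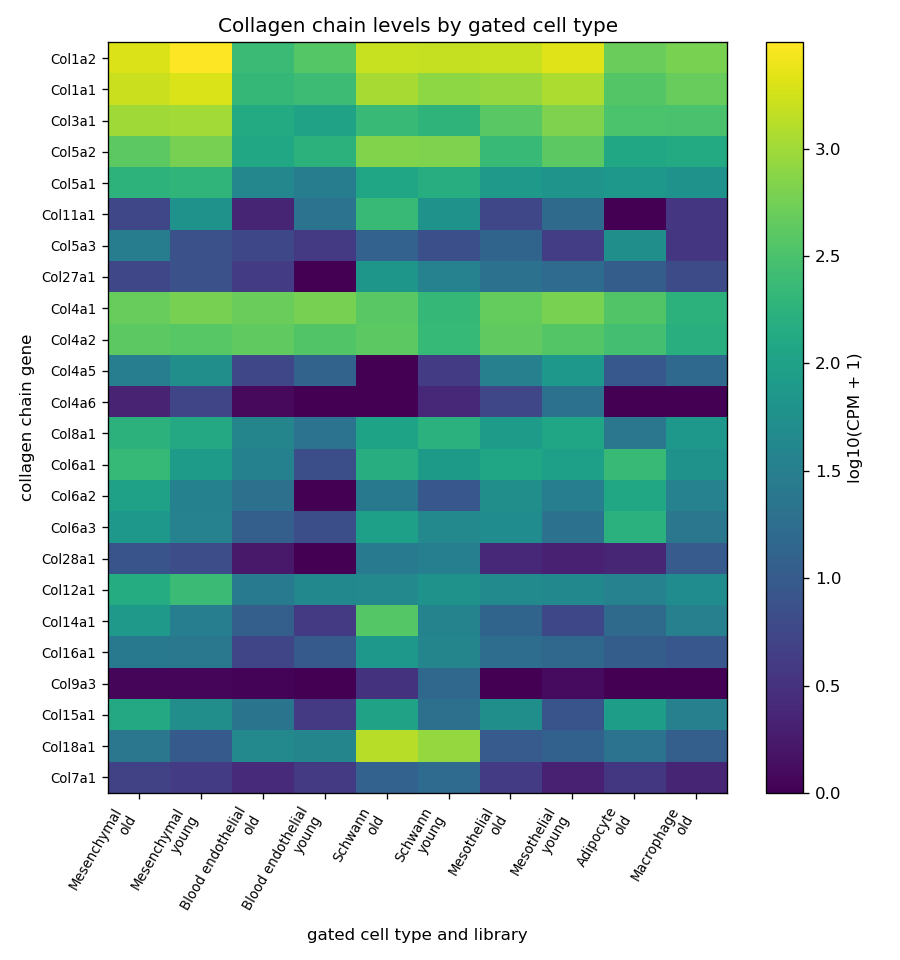
Levels of the collagen chains by gated cell type and library, as a colour map of log10(CPM + 1), with the old column left of the young one. Schwann cells stand out for Col18a1 at 1309.7 CPM in the old and 878 CPM in the young library, and endothelial cells for Col4a1 and Col4a2 at mesenchymal levels beside low fibrillar chains.

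Schwann cells were marked by a multiplexin. Col18a1 reached 1309.7 CPM in old Schwann cells (1204 to 1422) and 878 CPM in young ones (807 to 954), 55.9 and 101 times the mesenchymal level of the same library. After thinning to 2000 UMIs, 88.2% of old and 81.5% of young Schwann cells held a Col18a1 UMI, against 4.70% and 1.80% of mesenchymal cells and 2.88% of old macrophages. Multiplexins were 19.9% of Schwann collagen UMIs in the old and 17.0% in the young library. Col3a1 was low, at 225 CPM in old and 188 CPM in young Schwann cells, 22.6% and 18.4% of the mesenchymal level, while Col1a2 stood at 1576 and 1549 CPM, 76.8% and 49.6% of it. Type III collagen was therefore scarce beside type I in these cells in both libraries. Col27a1 had 68.9 CPM in old and 34.3 CPM in young Schwann cells, and Col28a1 27.6 and 31.1 CPM, each above its mesenchymal level. Col4a5 had 0 UMIs in old Schwann cells, which allows a level of up to 8.48 CPM.

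Over mesenchymal cells, 6 of 16 chains were at least 1.5-fold higher in old Schwann cells and 4 lower, where 30.7% of all genes were higher and 7.28% lower. In young Schwann cells 4 of 17 were higher and 6 lower, where 38.3% and 7.09% of all genes were. Between the libraries, 9 of 18 chains were at least 1.5-fold higher in old Schwann cells, where 17.6% of all genes were, and 1 was lower, where 13.8% were. Col14a1 had 370 CPM in old (315 to 432) and 35.8 CPM in young Schwann cells (22.7 to 53.7), 10.3-fold higher. Col15a1 had 103 and 18.7 CPM, 5.53-fold higher. Col11a1 had 225 CPM in old (183 to 274) and 60.7 CPM in young Schwann cells (43.2 to 83.0), 3.71-fold higher. The chain that was lower in old mesenchymal cells was thus higher in old Schwann cells, where 36.5% of old and 11.1% of young cells held a Col11a1 UMI after thinning. Col8a1 was the chain that was lower, with 106 CPM in old and 171 CPM in young Schwann cells.

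Young mesothelial cells had more Col4a6 and Col27a1 than young mesenchymal cells. In the young library Col4a6 had 19.0 CPM in mesothelial and 4.36 CPM in mesenchymal cells, 4.35-fold higher, and Col27a1 15.9 and 6.31 CPM. Col4a5 stood at 72.2 and 52.3 CPM, under the 1.5-fold limit. Col12a1 stood at 17.5% and Col15a1 at 13.5% of the mesenchymal level. Of 19 chains 2 were at least 1.5-fold higher and 8 lower than in young mesenchymal cells, where 16.8% and 9.76% of all genes were, and in the old library 0 of 14 were higher and 9 lower, where 14.2% and 12.3% of all genes were. Between the libraries 5 of 21 chains were higher in old mesothelial cells, where 15.4% of all genes were, and 5 were lower, where 16.9% were. Col15a1 had 53.6 CPM in old and 6.97 CPM in young mesothelial cells, Col6a3 49.0 and 19.8 CPM, and Col4a5 32.1 and 72.2 CPM. The directions of Col15a1, Col6a3 and Col4a5 were those of the mesenchymal cells, but not every chain kept its direction. Col8a1 had 81.1 CPM in old and 114 CPM in young mesothelial cells, against 177 and 128 CPM in mesenchymal cells. Both Col8a1 differences were under the 1.5-fold limit. The hexagonal network class had a log2(old/young) of -0.50 in mesothelial cells (-0.94 to -0.09) and 0.46 in mesenchymal cells.

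Old adipocytes had a smaller part of fibrillar and a larger part of type VI collagen than old mesenchymal cells. Fibrillar chains were still their largest class, 51.3% of collagen UMIs in old adipocytes and 73.7% in old mesenchymal cells, and beaded filament chains were 18.7% and 5.52%. Fibrillar chains summed to 1423 CPM in old adipocytes. Col6a3 stood at 170 CPM in old adipocytes and 72.3 CPM in old mesenchymal cells, 2.34-fold higher, and Col5a3 at 54.7 and 28.6 CPM, 1.91-fold higher. Col6a1 and Col6a2 were near the mesenchymal level, with 224 and 124 CPM in old adipocytes. Col1a1 had 358 CPM, 21.6% of the mesenchymal level, and Col1a2 488 CPM, 23.8%. Of 13 chains 2 were at least 1.5-fold higher and 6 lower, where 25.6% and 16.6% of all genes were. In the 46 old adipocytes with at most 2 mesenchymal markers the log2 difference of Col6a3 was 0.66, against 1.23 in the whole gate, and that of Col5a3 was 1.27, against 0.93.

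Old macrophages gave the level that cells not known to make fibrillar collagen show in this library. All 13 chains with at least 20 UMIs there were at least 1.5-fold lower than in mesenchymal cells, where 24.0% of all genes were lower and 25.2% higher. Over the 18 chains above 20 CPM in mesenchymal cells, the median macrophage level was 34.0% of the mesenchymal one. Col1a1 stood at 483 CPM in the gate and at 161 CPM in the 63 macrophages with at most 2 mesenchymal markers. After thinning, 39.4% of old macrophages and 29.6% of old endothelial cells held a Col1a1 UMI, against 89.3% of old mesenchymal cells. Col3a1 stood at 312 CPM and Col1a2 at 610.4 CPM in the macrophage gate. The Col1a1, Col1a2 and Col3a1 levels of old endothelial cells and the Col3a1 level of old Schwann cells lie under these values, and so do the Col1a1 and Col1a2 levels of old adipocytes, so none of them was shown to be above background. The Col1a1 level of old endothelial cells, 214 CPM, was above the 161 CPM of the macrophages with few mesenchymal markers, so the background itself depends on which macrophages are taken.

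Within the mesenchymal cells, 8 further gates were set by markers of subtypes. They overlap: 4011 old cells passed none of them, 3824 passed 1 and 2548 passed several, and 4551, 3652 and 2118 young cells did so. Old and young cells numbered 2329 and 2519 in the cycling gate, 187 and 22 in the pericyte gate, 1315 and 1823 in the contractile gate, 1914 and 113 in the adventitial progenitor gate, 1700 and 936 in the adipogenic gate, 155 and 459 in the cardiac-type factor gate (Tbx20, Gata4 and others), 2201 and 2164 in the matrix fibroblast gate, and 9 and 451 in the Itga8-type gate. In the cycling gate 247 of 2329 old and 386 of 2519 young cells stood at the limit. In the other gates most passing cells did, for example 840 of 1315 old contractile and 149 of 187 old pericyte cells, with 829 old cells 1 marker below the pericyte limit. The pericyte and Itga8-type gates had too few cells in 1 library to be compared between ages.

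Most differences between the libraries kept their sign in the other 6 gates. Of 21 chains with at least 20 UMIs in each, 8 had a log2(old/young) above 0 in all 6 gates, 8 had one below 0 in all 6, and 5 were mixed. Col6a2 lay between 1.35 and 1.97, Col6a1 between 1.02 and 1.45, Col5a3 between 1.53 and 2.84 and Col18a1 between 1.17 and 2.23, and all 4 passed 1.5-fold in every gate. Col6a3 (0.50 to 1.97), Col14a1 (0.52 to 1.28) and Col15a1 (0.09 to 2.38) passed it in 5 of 6 gates, and Col8a1 in 2. On the lower side Col11a1 lay between -4.15 and -3.54, Col4a6 between -2.30 and -1.29, Col4a5 between -1.33 and -0.64 and Col12a1 between -1.17 and -0.61, each past 1.5-fold in every gate. The share of all genes that passed 1.5-fold upward in old cells was 17.1% in the cycling, 16.5% in the contractile, 22.3% in the adventitial progenitor, 20.3% in the adipogenic, 18.5% in the cardiac-type factor and 17.4% in the matrix fibroblast gate. The share that passed it downward was 10.7%, 10.5%, 12.7%, 10.4%, 11.3% and 10.8% in the same order. Of the chains, 8 of 28, 10 of 27, 8 of 26, 8 of 27, 6 of 22 and 7 of 29 were that much higher. Those that much lower were 5, 8, 8, 11, 5 and 8. The median log2 difference of the chains was 0.07, -0.15, -0.11, -0.18, -0.01 and -0.17, against 0.10 to 0.12 over all genes. It was thus below that of all genes in each gate. In the mesenchymal gate as a whole the chain median was above that of all genes. That median was taken over 34 chains, more than in any subtype gate, so the 2 are not over like sets of chains. The gates share cells and come from the same 2 libraries, so they are not independent of each other. The share of all genes with 1 sign in all 6 gates was not computed. Agreement in sign was therefore not shown to be particular to the collagens.

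**Figure D4:**
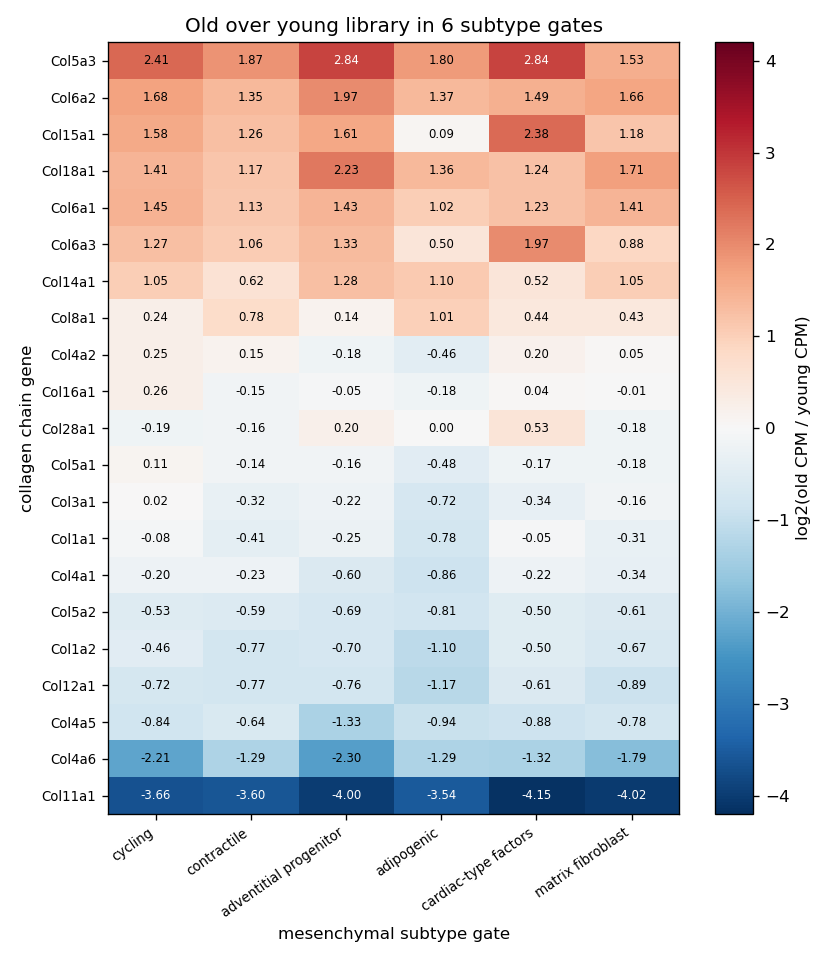
Log2(old/young) of the 21 collagen chains with at least 20 UMIs in each of 6 mesenchymal subtype gates, as a colour map with the value in each field. The 8 chains above 0 in every gate and the 8 below 0 in every gate form separate blocks, with Col11a1 between -4.15 and -3.54.

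The adipogenic gate, set by Pparg, Lpl and other genes of fat precursors, had the widest gap in the total. All chains together reached 6354 CPM there in old and 10609 CPM in young cells, a log2 difference of -0.74. Col1a2 and Col3a1 were at their lowest log2 difference over the gates at -1.10 and -0.72. The median cell of this gate had 0.620% collagen UMIs in the old and 1.02% in the young library. The young value was thus the highest median of the young gates.

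The old pericyte gate, set by Rgs5, Notch3 and other markers of mural cells, had the most collagen of the old gates, 9964 CPM. Of 19 chains 10 were at least 1.5-fold higher than in the other old mesenchymal cells, where 3.75% of all genes were, and 1 was lower, where 2.88% were. Col15a1 had 384 CPM in pericyte-gated and 121 CPM in other cells, Col6a3 196 and 69.7 CPM, and Col18a1 68.8 and 22.5 CPM. The basement membrane pair was higher too, Col4a1 at 748 and 476 CPM and Col4a2 at 640 and 409 CPM. Col4a5 was the chain that was lower, with 17.6 and 30.4 CPM. In the young pericyte gate, 10 UMIs of Col10a1 gave 25.3 CPM over 22 cells, and 1 young mesenchymal cell held as many as 10 UMIs of that gene.

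The young Itga8-type gate had the least. Its chains summed to 4755 CPM, a log2 difference of -0.91 from the other young mesenchymal cells. Of 19 chains 12 were at least 1.5-fold lower, where 7.32% of all genes were, and 1 was higher, where 6.92% were. Col3a1 had 244 CPM in Itga8-type and 1069 CPM in other cells, Col15a1 10.6 and 54.4 CPM, Col4a1 202 and 622 CPM, and Col4a2 150 and 396 CPM. The higher chain was Col6a3, with 51.1 and 33.6 CPM. In these cells Col3a1 UMIs were 0.223 times those of Col1a1, close to the 0.208 of old and 0.235 of young Schwann cells.

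The young cardiac-type factor gate held the most Col11a1, 141 CPM against 56.4 CPM in the other young mesenchymal cells. Col4a6 (11.0 and 3.88 CPM) and Col4a5 (88.5 and 49.7 CPM) were higher there as well, and Col6a3 (10.7 and 36.4 CPM) and Col15a1 (17.2 and 54.3 CPM) lower. In all, 4 of 20 chains were at least 1.5-fold higher, where 4.68% of all genes were, and 3 were lower, where 3.49% were. The old gate had the same sign for Col4a5, with 48.2 CPM against 29.7 CPM, and for Col6a3, with 42.0 against 73.0 CPM. Of 18 chains in the old gate, 2 were at least 1.5-fold higher, where 3.92% of all genes were, and 2 were lower, where 2.48% were.

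Matrix fibroblast cells, gated by Cthrc1, Postn and others, had more of the same chains in both libraries. Col5a3 had 39.7 CPM in gated and 24.5 CPM in other old mesenchymal cells, and 13.7 and 3.66 CPM in young ones. Col15a1 had 179 and 106 CPM in the old and 79.4 and 41.7 CPM in the young library, and Col6a3 97.2 and 63.2 CPM in the old and 52.9 and 27.9 CPM in the young one. All 3 are among the chains that were higher in old mesenchymal cells as a whole. Of 26 chains in the old gate, 3 were at least 1.5-fold higher, where 1.28% of all genes were, and 1 was lower, where 1.99% were. In the young gate 6 of 27 were higher, where 2.18% were, and 1 was lower, where 1.37% were; the lower chain was Col28a1 each time.

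In cycling cells Col3a1 was lower in both libraries, at 713 CPM against 1117 CPM in other old mesenchymal cells and 702 CPM against 1167 CPM in other young ones. Of 25 chains in the old cycling gate, 4 were at least 1.5-fold lower, where 7.44% of all genes were, and 1, Col2a1, was higher, with 10.1 and 4.70 CPM, where 9.66% were. Of 28 in the young gate 3 were lower, where 6.16% of all genes were, and 0 were higher, where 10.5% were. Col27a1 was lower in both.

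Ratios between chains of 1 type do not depend on the scaling of the libraries. Over the 10 combinations of cell type and library with enough UMIs, Col1a2 to Col1a1 lay between 1.13 and 1.94. It was 1.24 in old and 1.57 in young mesenchymal cells, 1.46 and 1.94 in Schwann cells, and 1.83 and 1.84 in mesothelial cells. Endothelial cells gave 1.13 in the old library (1.07 to 1.19) and 1.5 in the young one, where the interval begins at 1.13 and so overlaps the old one. The young value rests on 126 Col1a2 and 84 Col1a1 UMIs. Col4a1 to Col4a2 was 1.16 in old and 1.56 in young mesenchymal cells, 1.14 and 1.71 in endothelial cells and 1.07 and 1.68 in mesothelial cells, but 0.961 and 0.957 in Schwann cells. The type I ratio was thus lower in the old library, with intervals that do not overlap, in mesenchymal and Schwann cells, and the type IV ratio in mesenchymal, endothelial and mesothelial cells. Col6a1 to Col6a2 was 2.21 in old and 2.58 in young mesenchymal cells. Col4a5 to Col4a6 was 26.2 in old and 12.0 in young mesenchymal cells, and in mesothelial cells 21 UMIs of Col4a5 stood beside 3 of Col4a6 in the old and 259 beside 68 in the young library. Col3a1 to Col1a1 lay between 0.208 in old Schwann cells and 0.882 in old adipocytes, a 4.24-fold range, the widest of the 3 ratios that had enough UMIs in all 10 combinations. The ratio of Col8a1 to Col8a2, available in 5, ranged more widely. Some of these ratios rest on levels that were not shown to be above background. They are Col3a1 in old Schwann cells, Col1a1 and Col1a2 in old adipocytes, and Col1a1, Col1a2 and Col3a1 in old endothelial cells. Both ends of the Col3a1 to Col1a1 range and the lowest Col1a2 to Col1a1 ratio are among those ratios.

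**Figure D5:**
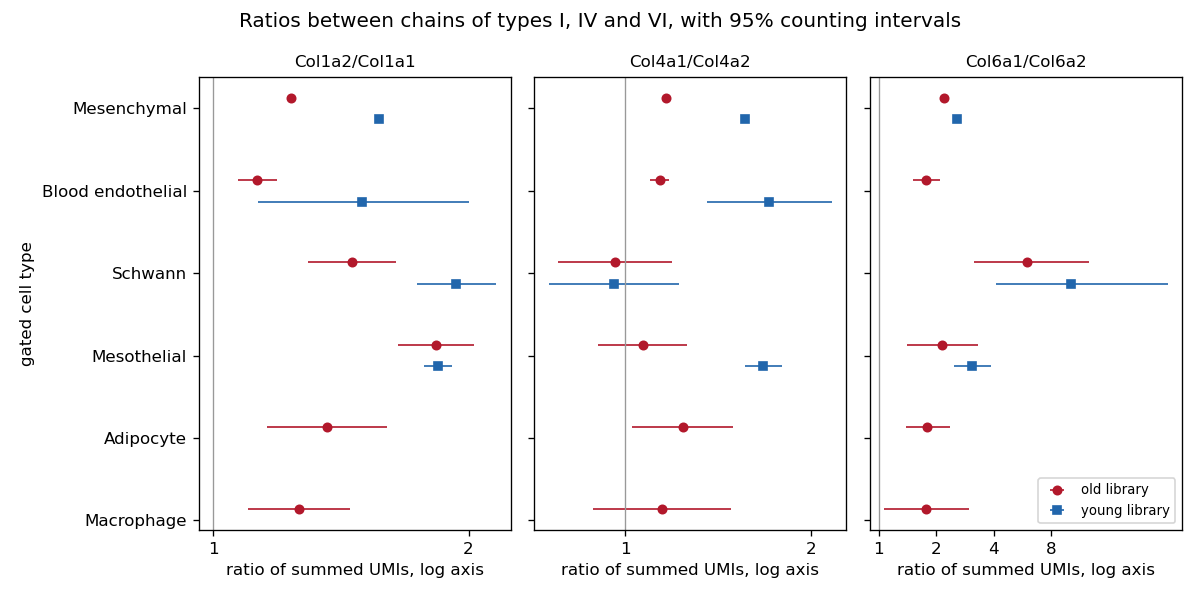
Ratios of summed UMIs between chains of 1 collagen type by gated cell type, with old and young libraries as separate points and 95% binomial intervals, on a log axis. The ratio of Col4a1 to Col4a2 sits at 1.16 in old and 1.56 in young mesenchymal cells, and at 0.961 and 0.957 in Schwann cells.

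Some members carry limits of counting. Col10a1 lies within Nt5dc1, Col18a1 overlaps Slc19a1 and Col9a3 overlaps Tcfl5 on the other strand, and the sources used here do not say whether the counting used strand. The promoter table had no entry for Col1a1, Col2a1, Col5a2, Col9a3, Col12a1, Col14a1 and Col22a1.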

How the data were processed

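Single-cell RNA libraries of stromal cells from mouse perivascular adipose tissue were used, 1 from old and 1 from young mice. The deposited values are unnormalized counts of UMIs per gene and barcode, written by Cell Ranger 3.0.1 per the file headers; the genome build was mm10 per the submitters' processing notes. The sources used here do not give the annotation release, strand setting or barcode calling.

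Kept cells had 500 or more genes and no more than 10% of UMIs from mitochondrial genes. The automatic threshold of Scrublet (scanpy 1.11.5) marked 0 cells, so the cells with the highest scores were removed, 1504 old and 1302 young, in proportion to the number of cells. Some doublets may remain. Cells were gated by 3 markers of a type (4 for the blood endothelial, cycling and contractile gates). Cells in more than 1 type gate other than the mesenchymal one were set aside, 29 old and 0 young cells. A cell that passed the mesenchymal gate and 1 other type gate was counted as the other type. UMIs were summed per gate and library and given as CPM. Log2(old/young) has an exact conditional Poisson interval, shares an exact Clopper-Pearson binomial interval and chain ratios an exact binomial interval, each at 95% and for counting error only. Barcodes are not replicates, so no p-value is given. A chain counts as higher or lower at 1.5-fold with at least 20 UMIs. A level of 0 was compared through a floor of 3 counts, and no fold is given where the other library is under that floor. Shares of cells were also computed after thinning each cell to 2000 UMIs, leaving out 73 old and 85 young mesenchymal cells that were shallower. The fold intervals and the 1.5-fold calls were tested on Poisson counts simulated from the mesenchymal profile of both libraries together. Gating, doublet removal, thinning, free RNA and differences between libraries were not simulated. Annotation and transcripts were GENCODE vM21 on GRCm38, and promoters RefSeq on GRCm38.p6, both the build of the files; coordinates are 1-based.

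All members may be named; of maturation and receptor genes, up to 4 per list with the largest difference and at least 100 UMIs. The members, markers and lists were chosen with earlier results of these data known. Alternatives covered doublet removal, cell filters, gates, scaling (median-of-ratios size factors), subtype weights, Leiden clusters (igraph 0.11.9, resolution 1, 30 components, 15 neighbours, 2000 genes) and count limits.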

Additional observations from a re-analysis of the deposited data

Results flagged for a closer look

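Col11a1 stood out because it differed in opposite directions in 2 cell types. Its log2(old/young) was 1.89 in Schwann cells (86 old and 81 young cells) and -3.75 in mesenchymal cells. The difference between the cell types was not tested, since each age has 1 library. The Schwann value was 1.60 with gates 1 marker looser and 1.44 without doublet removal, and it stayed positive with stricter gates and in Schwann cells with at most 2 mesenchymal markers.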

How the results depend on the processing

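Of the 18 collagen chains at least 1.5-fold higher or lower in old mesenchymal cells, none changed sign under 10 alternatives, and 177 of 180 values stayed past 1.5-fold. The log2(old/young) of all chains together (-0.26 as reported) and of the fibrillar class (-0.39) was -0.26 and -0.38 without doublet removal, -0.27 and -0.40 with a looser filter on cells, -0.25 and -0.38 with gates 1 marker looser, -0.27 and -0.40 with gates 1 marker stricter (basement membrane class -0.19), and -0.26 and -0.38 with Leiden clusters, which do not match old to young cells, since the libraries share few clusters. Median-of-ratios size factors shift every log2 value by -0.11 and gave -0.37, -0.50, -0.27 for the basement membrane, 0.35 for the hexagonal network, 1.22 for the beaded filament, -0.39 for the FACIT and 1.20 for the multiplexin class. Equal weight over subtypes gave -0.37, -0.51, -0.27, 1.26 for beaded filaments, -0.45 for FACIT chains and 1.21 for multiplexins. Outside the cycling gate the values were -0.31, -0.44, -0.21, 0.56 for hexagonal networks, 1.29 and 1.21. Mesenchymal cells with no UMI of another cell type's markers, a choice made after seeing the data, gave -0.23, -0.36, -0.12, 0.59, 1.36 and, for FACIT chains, -0.21. At a 2-fold limit, 3 chains were lower instead of 6. Collagen in old endothelial over mesenchymal cells (log2 -1.92) was -1.60 and -1.96 with looser and stricter gates, -1.53 without doublet removal and -2.07 in cells with at most 2 mesenchymal markers (chosen after seeing the data). The old pericyte gate (0.47) gave 0.31, 0.61 and 0.44, and the young Itga8-type gate (-0.91) gave -0.87, -0.93 and -0.80, with looser gates, stricter gates and no doublet removal. The old ratio of Col1a2 to Col1a1 over the young one (log2 -0.34) was -0.33 outside the cycling gate. With median-of-ratios size factors 2 maturation genes were higher instead of 6. The causes were not tested.

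No paired analysis was possible because each age has 1 library and the labels give no pairing. Depth limits chains under 1 CPM and gates under 100 cells most. Free RNA and remaining doublets can add collagen UMIs to other cell types, and the digest can set which cells are seen.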
